A study of Homo sapiens with 2 samples.

Results

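The expression of 51 genes of DNA replication was followed in HCT116 cells, an epithelial line from a human colorectal carcinoma, after infection with a lentivirus carrying an shRNA against RAP1. The 51 genes cover the origin recognition complex, the loading and activation of the replicative helicase, the DNA polymerases with their clamp and clamp loader, the single-strand binding protein RPA, Okazaki fragment processing, fork protection and nucleotide supply. They were chosen by name from the functions of their proteins, but with earlier results of these data known. Each gene was read by its brightest probe set carrying a single gene symbol, and all 51 had such a probe set among the 18132 genes that did. The control culture (shNC) received a lentivirus carrying an shRNA meant to hit no gene, and the second culture (shRAP1) a single shRNA construct against RAP1, labelled sh-RAP1-4#. Both were HCT116 cells harvested 72 h after infection at a multiplicity of infection of 20, and each gave 1 array, so no parental line, no uninfected culture and no further shRNA entered the comparison. The study asked how RAP1 acts on colorectal cancer cells.

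Replication starts where the origin recognition complex (ORC), CDC6 and CDT1 load the ring-shaped MCM helicase onto DNA before S phase. In S phase CDC45 and GINS join that ring to form the active helicase, polymerase alpha with primase lays down primers, and polymerases epsilon and delta extend the leading and lagging strands with the clamp PCNA. Many of these genes are transcribed in late G1 and S phase under E2F transcription factors, so that their messenger RNA is abundant in dividing tumour lines.

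With 1 array per group no test, p-value or replicate error could be had, and every value below describes these 2 arrays. Each difference is the log2 intensity of shRAP1 minus that of shNC, and intensities are the deposited values on the linear scale. As gauges of size, the differences of all genes had an SD of 0.16, and 2 probe sets of a gene differed with an SD of 0.096 per probe set, from 6135 genes. Neither SD contains variation between cultures. A gene counted as measured where its higher value reached the floor, the median of all non-control values (78.0, or 6.29 on the log2 scale), and 10437 genes did.

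The RAP1 labels were checked first. TERF2IP, which encodes the telomere protein RAP1, had a log2 intensity of 10.36 in shNC against 9.29 in shRAP1, on a single probe set of a class (_s_at) that can match more than 1 transcript. The GTPase genes RAP1A and RAP1B, which share the name, differed by −0.18 and −0.10. Of 10 colon epithelial markers 6 were past the floor (EPCAM, KRT8, KRT18, KRT19, CDH1 and CDX2) with differences between −0.082 and 0.12, while VIL1, CDX1, CDH17 and LGALS4 were below it. The summed intensity of that list was 31043 in shNC and 31814 in shRAP1. Of 6 leukocyte markers CD79A alone was past the floor (summed intensity 176 and 186), and PTPRC, CD3E, CD14 and LYZ were below it. Of 9 fibroblast and endothelial markers only VWF was (339 and 354), and COL1A1, COL3A1, PECAM1 and CDH5 were below. The polyadenylated spike-in controls differed between the arrays, with medians of −0.30 for dap, −0.41 for lys, −0.29 for phe and 0.41 for thr, and their part in the results was not tested.

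Replication genes were mostly lower in the shRAP1 culture, by small amounts. Of the 50 members past the floor, 42 were lower and 8 higher, against 46.8% of all genes lower and 53.2% higher. The median difference was −0.13 over the members, a level of 91.2% of the control, and 0.010 over all genes. Under lowess centring 40 of the 50 were lower, against 5265 of all 10437 genes. By at least 1.2-fold (0.26 on the log2 scale), 8 members were lower and 0 higher, where 3.58% of all genes were lower and 4.96% higher by that size. The 8 were GINS2, TK1, CDC45, FEN1, POLA1, ORC6, TIMELESS and POLA2, and none of the 50 reached 1.5-fold. Of the 50, 25 differed by at least 1 SD and 4 by at least 2 SD of the 500 genes nearest to them in mean value, in either direction, against 29.2% and 4.76% of all genes. In a bulk culture fewer cells in S phase and less of these RNAs per cell cannot be told apart.

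**Figure D1:**
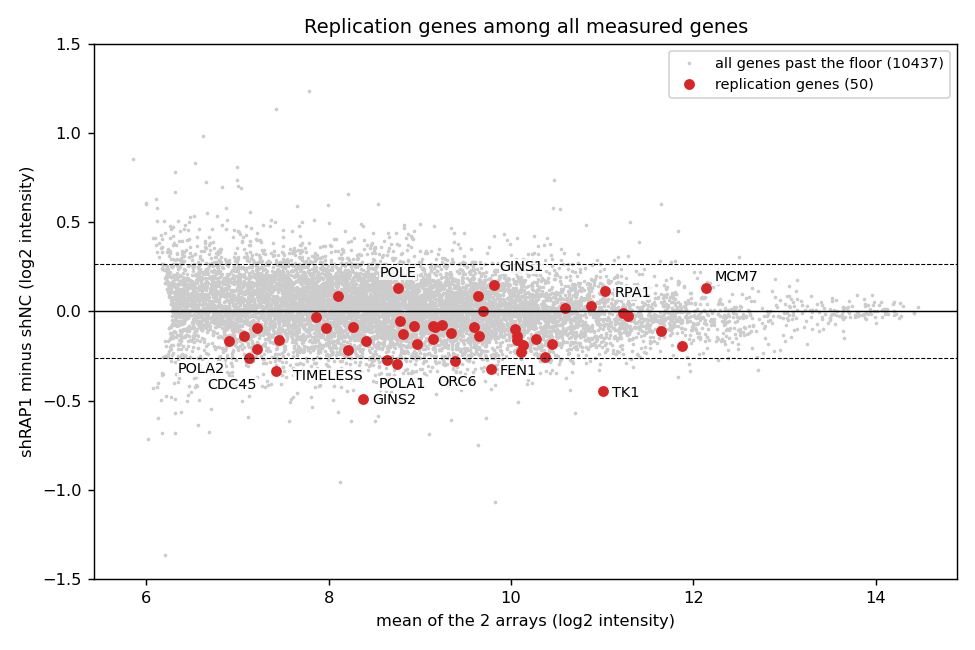
Difference shRAP1 minus shNC (log2 intensity) against the mean of the 2 arrays (log2 intensity) for 10437 genes (grey) and the 50 replication genes past the floor (red), with dashed lines at 1.2-fold. The red points lie mostly below 0 at all intensities, GINS2 (−0.49) and TK1 (−0.45) lowest, and MCM7, GINS1, POLE and RPA1 are among the 8 above 0.

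Several probe sets of a gene mostly agreed in sign. The 51 genes had 132 probe sets with a single symbol, 118 of them past the floor, of which 100 were lower and 18 higher. The share over all probe sets was not computed, and a gene with several probe sets counts more than once here. Among the 33 members with at least 2 probe sets past the floor, 23 were lower on all of them, 3 higher on all and 7 had both signs, against 31.0%, 29.2% and 39.8% of 6135 such genes overall. The 7 with both signs were CDT1, GINS4, LIG1, MCM6, RFC3, RFC5 and RPA2. Those higher on all were MCM7, GINS1 and RPA1. The dimmer measured probe sets of GINS1 and RPA1 passed the floor only through the shRAP1 array, so the floor fixed their sign. In the other direction the same held for a probe set each of PCNA and POLD3, past the floor only through the shNC array. For these genes the agreement in sign carries no weight. Probe sets of a gene sit on the same 2 arrays and can share transcript sequence, so their agreement is no replication. In POLE3 and in RRM1, 2 probe sets gave identical intensities and entered the counts separately.

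All 6 subunits of ORC, which marks origins and recruits the helicase, were lower, with a median of −0.16. ORC6, the smallest subunit, read 737 in shNC and 607 in shRAP1, a difference of −0.28 on its 1 probe set. ORC2 followed at 536 and 472 (−0.18), with its 3 probe sets between −0.18 and −0.084. ORC1, the subunit whose protein rises and is destroyed within each cycle, read 127 and 113 (−0.17) on 1 probe set. ORC4 was at −0.15 and ORC5 at −0.12, each lower on 3 probe sets, the dimmest of which gave −0.32 for ORC4 and −0.27 for ORC5. ORC3 was at −0.090, with all 6 of its probe sets past the floor lower, between −0.13 and −0.0041. The subunits thus differed in size but not in sign. Sequences upstream of transcription starts are shown for members at the ends of the range, the 150 bases before the annotated start in RefSeq (GRCh38.p14), 5′ to 3′ on the strand of the gene. Capitals mark an E2F motif (TTTCCCGC, TTTGGCGC, TTTCGCGC or TTTGCCGC, on either strand) or a CCAAT box on either strand, the element bound by NF-Y. The window of ORC6 held 2 CCAAT boxes and no E2F motif.
ORC6, chr16:46689509-46689658, + strand: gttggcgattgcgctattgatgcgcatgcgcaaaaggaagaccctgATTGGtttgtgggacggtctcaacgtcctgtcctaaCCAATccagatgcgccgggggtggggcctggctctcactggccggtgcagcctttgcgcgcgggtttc

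The helicase loaders were lower as well. CDC6, the ATPase that works with ORC, read 1491 in shNC and 1315 in shRAP1 (−0.18), and its other probe set gave −0.21. GMNN encodes geminin, which blocks CDT1 after origins have fired, and read 1198 and 1022 (−0.23) on 1 probe set. CDT1, the partner it inhibits, read 584 and 551 (−0.083), with its other probe sets at 0.032 and −0.0019. The inhibitor was therefore further below its control than its target on the brightest probe sets.

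The MCM2-7 ring did not move as a unit. Its 6 genes had a median of −0.14 with 4 lower and 2 higher. MCM3 read 1449 in shNC and 1214 in shRAP1 (−0.26), with 3 of 4 probe sets between −0.29 and −0.26 and the remaining value at −0.018. MCM5 read 160 and 138 (−0.21) on 1 probe set. MCM4 read 1137 and 1016 (−0.16) on its brightest probe set and −0.36 at the lowest of 5, all lower, with a median of −0.32 over the 5. MCM2 was at −0.13 with 4 probe sets lower. MCM7 read 4308 and 4713 (0.13), and its 4 probe sets lay between 0.062 and 0.13. MCM6 read 772 and 819 (0.085), but its dimmer probe sets gave −0.093 and −0.12, so its sign depended on the probe set. The upstream windows of these 2 higher members, that of MCM7 at the farthest upstream of its 3 annotated starts, held E2F motifs and CCAAT boxes. The windows at the other starts of MCM7 each held a CCAAT box and no E2F motif.
MCM6, chr2:135876444-135876593, - strand: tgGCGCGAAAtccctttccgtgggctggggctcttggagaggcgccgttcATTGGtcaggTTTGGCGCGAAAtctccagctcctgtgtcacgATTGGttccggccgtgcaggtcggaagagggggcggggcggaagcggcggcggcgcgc
MCM7, chr7:100101398-100101547, - strand: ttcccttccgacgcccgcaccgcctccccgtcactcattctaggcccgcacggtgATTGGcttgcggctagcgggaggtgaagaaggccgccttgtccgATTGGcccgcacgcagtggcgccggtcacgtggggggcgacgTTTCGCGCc
In MCM6 the E2F motif TTTGGCGC and, on the other strand, TTTCGCGC overlap within a single block of capitals.

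The factors that turn the loaded ring into the active helicase differed from each other. CDC45 read 192 in shNC and 153 in shRAP1, or 79.5% of the control, and a difference of −0.33, and its 3 probe sets agreed between −0.36 and −0.30. MCM10, which is needed to set the assembled helicase in motion, read 450 and 433 (−0.056), with 3 probe sets between −0.11 and −0.056. Both were lower on every probe set past the floor, CDC45 by more than 2 SD of genes of its intensity and MCM10 by 0.37 SD.

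GINS, the 4-subunit complex that binds between CDC45 and the MCM ring, held both the lowest and the highest member of all 50. GINS2 read 394 in shNC and 280 in shRAP1, or 71.1% of the control, and a difference of −0.49, 3.34 times the SD of genes of similar intensity, but on 1 probe set. GINS1 read 854 and 947 (0.15), its second probe set past the floor gave 0.45 from an shNC value below the floor, and another, below the floor on both arrays, gave 0.20. GINS3 was at −0.095 on 1 probe set, and GINS4 at −0.034 with 0.050 on its second measured probe set. The complex therefore had a median of −0.064 and a range from −0.49 to 0.15. Both of these extreme members carried an E2F motif and a CCAAT box in the promoter searched (250 bases before to 50 after the start), at different positions. In GINS2 the E2F motif lies 31 bases before the start and the CCAAT box 158 bases before it, outside the sequence shown. In GINS1 the CCAAT box lies 13 bases before the start, and the E2F motif begins 5 bases after the start, outside the sequence shown.
GINS2, chr16:85688955-85689104, - strand: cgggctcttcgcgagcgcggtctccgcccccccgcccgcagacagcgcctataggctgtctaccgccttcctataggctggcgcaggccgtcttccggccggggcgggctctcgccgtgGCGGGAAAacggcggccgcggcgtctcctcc
GINS1, chr20:25407523-25407672, + strand: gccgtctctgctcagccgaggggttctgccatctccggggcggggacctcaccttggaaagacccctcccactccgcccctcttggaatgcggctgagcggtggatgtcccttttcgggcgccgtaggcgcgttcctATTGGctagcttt

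**Figure D2:**
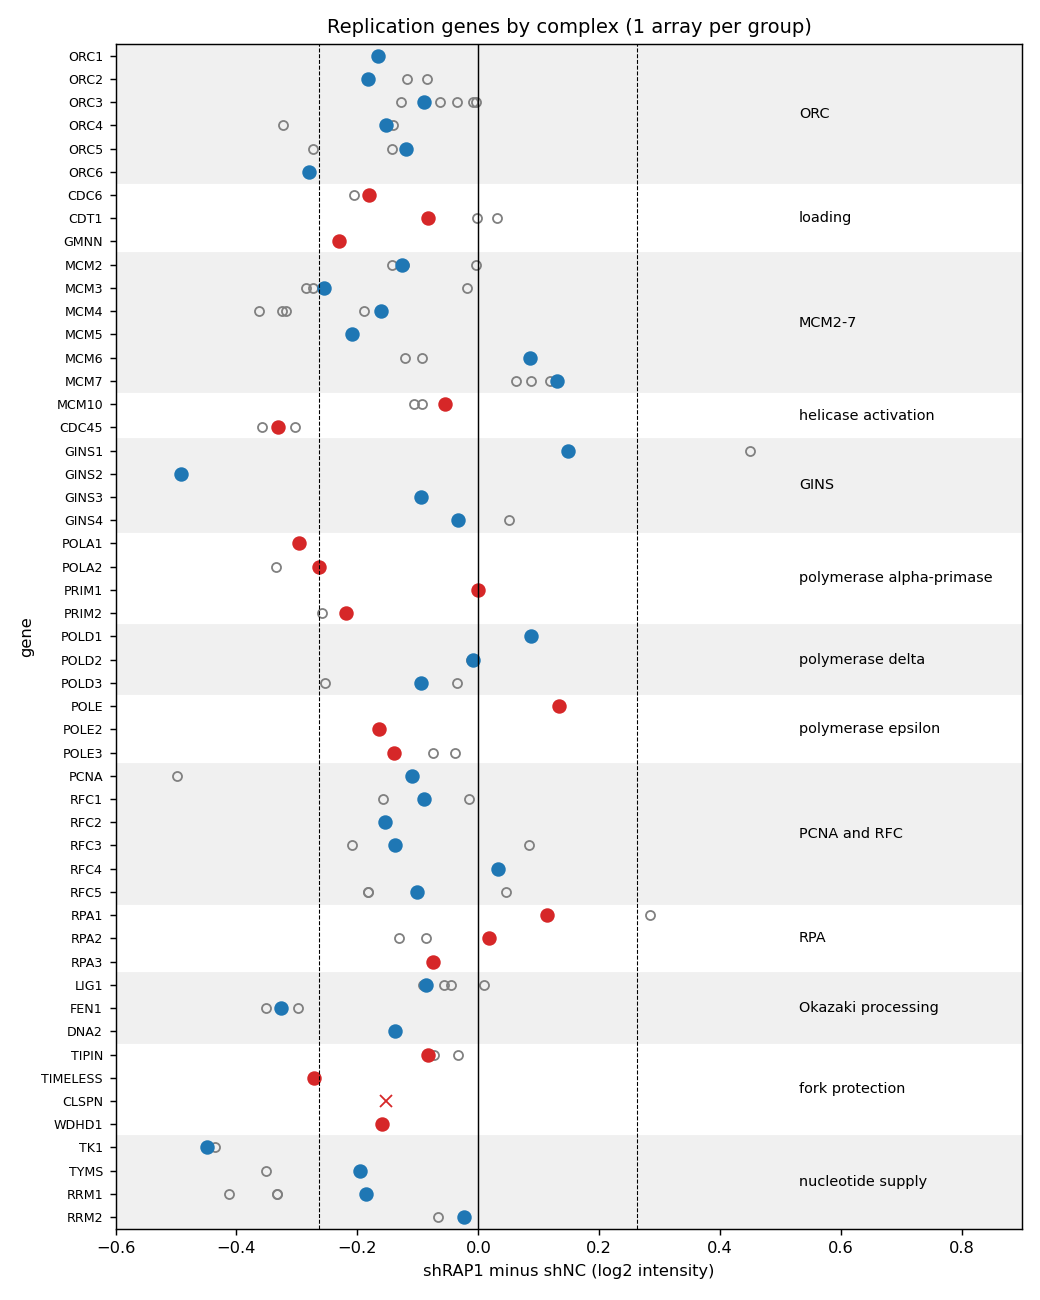
Difference shRAP1 minus shNC (log2 intensity, 1 array per group) of each replication gene, grouped by complex. Filled points are the brightest probe set (colours alternate between complexes), open points the other probe sets past the floor, the cross CLSPN, which was below the floor, and dashed lines mark 1.2-fold. ORC, loading, helicase activation, Okazaki processing, fork protection and nucleotide supply have all filled points below 0. So does polymerase alpha-primase, with PRIM1 at −0.00046. GINS ranges from −0.49 to 0.15, and RPA has 2 of 3 above 0.

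Polymerase alpha-primase, which makes the RNA-DNA primers, had a median of −0.24, the lowest of the 13 groups on the brightest probe sets. POLA1, its catalytic subunit, read 478 in shNC and 389 in shRAP1 (−0.30) on 1 probe set. POLA2, the accessory subunit, read 154 and 128 (−0.26), with its other probe set at −0.33. PRIM2, the large primase subunit, read 319 and 274 (−0.22), with −0.26 on its other probe set. PRIM1, the catalytic primase subunit, stood apart at 830.3 and 830.0 (−0.00046) on its 1 probe set. Thus 3 of 4 subunits were lower by similar amounts. The windows of POLA1 and POLA2 each held an E2F motif.
POLA1, chrX:24693768-24693917, + strand: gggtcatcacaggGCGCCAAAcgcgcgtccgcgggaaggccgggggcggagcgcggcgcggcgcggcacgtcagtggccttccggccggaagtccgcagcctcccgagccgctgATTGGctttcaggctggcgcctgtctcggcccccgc
POLA2, chr11:65261812-65261961, + strand: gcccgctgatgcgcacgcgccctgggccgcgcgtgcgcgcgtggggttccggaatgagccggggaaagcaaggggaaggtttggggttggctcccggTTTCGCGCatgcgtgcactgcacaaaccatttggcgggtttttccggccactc

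The extending polymerases showed no common direction. In polymerase delta, POLD1, the catalytic subunit, read 267 in shNC and 283 in shRAP1 (0.087), POLD2 2414 and 2399 (−0.0089) with its other probe set at −0.011, and POLD3 153 and 143 (−0.095) with 3 probe sets between −0.25 and −0.035. Its median of −0.0089 was near that of all genes and turned to 0.012 when differences were centred on a lowess trend over intensity. In polymerase epsilon, the catalytic subunit POLE read 414 and 454 (0.13), while POLE2 read 360 and 322 (−0.16) and POLE3, a histone-fold subunit, 1124 and 1021 (−0.14) with 4 probe sets lower. A further probe set of POLE3 gave the same intensities as its brightest, so those are not separate readings. Among the members of each enzyme the catalytic subunit was the higher one, each on 1 probe set. POLD4, a subunit of polymerase delta outside the member list, was higher still at 0.11, with 3 probe sets between 0.048 and 0.15. It was named after its value was seen. POLE was among the 4 higher members with an E2F motif near the start.
POLE, chr12:132687343-132687492, - strand: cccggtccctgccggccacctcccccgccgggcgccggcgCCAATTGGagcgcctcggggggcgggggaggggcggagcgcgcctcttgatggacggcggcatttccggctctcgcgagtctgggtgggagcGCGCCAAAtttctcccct

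PCNA and its loader were slightly lower. PCNA, the sliding clamp, read 3322 in shNC and 3080 in shRAP1 (−0.11), and a dimmer probe set, whose shRAP1 value was below the floor, gave −0.50. On the brightest probe sets of the 5 subunits of replication factor C, RFC2 (596 and 536, −0.15) and RFC3 (845 and 768, −0.14) were lowest. RFC5 was at −0.10 and RFC1 at −0.089. RFC4 was the exception at 1868 and 1910 (0.032). Other measured probe sets gave −0.21 and 0.084 for RFC3, −0.18, −0.18 and 0.046 for RFC5, and −0.16 and −0.015 for RFC1. The 6 genes had a median of −0.10. RPA, the trimer that coats single-stranded DNA, was the only group of the 13 with a median above 0 (0.018), joined by polymerase delta under lowess centring. RPA1, its largest subunit, read 2019 and 2184 (0.11), and a dimmer probe set, whose shNC value was below the floor, gave 0.28. RPA2 read 1535 and 1554 (0.018) with −0.086 and −0.13 on its other probe sets, and RPA3 620 and 589 (−0.076). Where each gene was the median of its probe sets, the RPA median was −0.076, so its sign was not settled.

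The 3 genes of lagging-strand maturation were lower, with a median of −0.14. FEN1, the flap endonuclease that trims Okazaki fragments, read 983 in shNC and 785 in shRAP1, a difference of −0.33, and its 3 probe sets lay between −0.35 and −0.30. LIG1, the ligase that seals the nicks, read 318 and 299 (−0.087), with 4 of 5 probe sets lower. DNA2, a nuclease-helicase for long flaps, read 141 and 128 (−0.14) on 1 probe set past the floor. FEN1 thus lay well below the other two on the log2 scale.

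Of the fork protection genes 3 were measured, all lower. TIMELESS read 440 in shNC and 364 in shRAP1 (−0.27), while its binding partner TIPIN read 505 and 477 (−0.084) with 3 probe sets between −0.084 and −0.034. WDHD1, which tethers polymerase alpha to the helicase, read 185 and 166 (−0.16). CLSPN, the mediator of the replication checkpoint, was below the floor on both arrays (62.4 and 56.1), so no size is given for it.

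All 4 nucleotide supply genes were lower, with a median of −0.19. TK1, the thymidine salvage kinase, read 2400 in shNC and 1758 in shRAP1, or 73.2% of the control, and a difference of −0.45, 3.61 times the SD of genes of similar intensity, with −0.44 on its other probe set. TYMS, which makes thymidylate de novo, read 4027 and 3515 (−0.20), and −0.35 on its dimmer probe set. RRM1, the large ribonucleotide reductase subunit, read 1199 and 1053 (−0.19), with its dimmer probe sets at −0.33, −0.33 and −0.41. The RRM1 probe sets at −0.33 gave identical intensities and are not separate readings. RRM2, the small subunit that limits the enzyme in S phase, differed little at 2512 and 2472 (−0.024), with −0.066 on its other probe set. The 2 subunits of ribonucleotide reductase thus differed in value, on all of their probe sets.

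**Figure D3:**
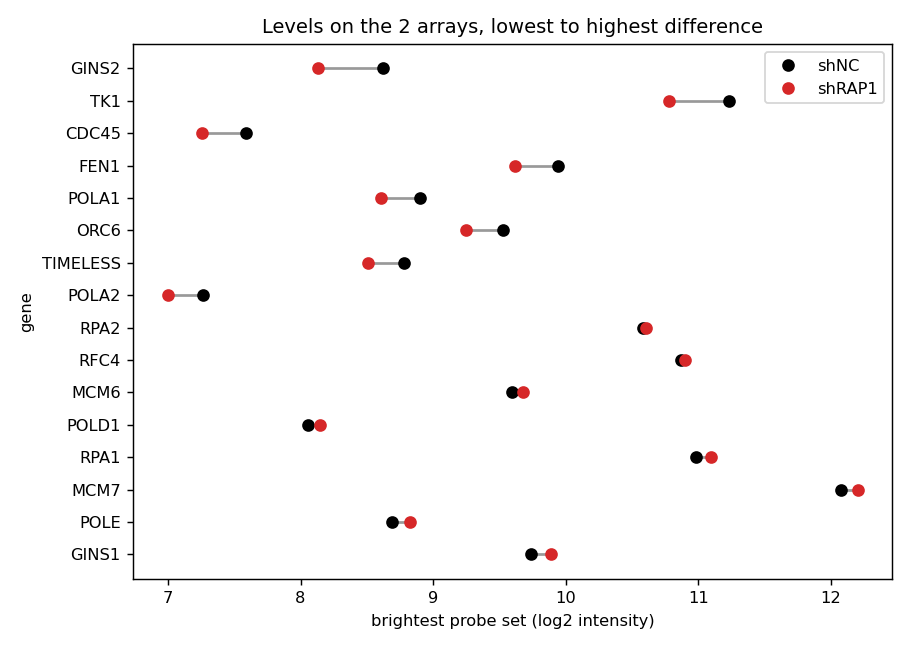
Intensity of the brightest probe set (log2) on the shNC array (black) and the shRAP1 array (red), 1 array each, for the 8 members lower by at least 1.2-fold and the 8 higher members, ordered by difference. The gap is widest for GINS2 (8.62 to 8.13) and TK1 (11.23 to 10.78), and the higher members differ by at most 0.15.

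Across the members, the E2F motif was common before and just after the start. The RefSeq table held 58 promoters (250 bases before to 50 after the start) of 44 members, 11 of which had more than 1 promoter. ORC1 to ORC6 were among the matched genes, and MCM4, MCM5, GINS4, POLD3, RPA2, RPA3 and DNA2 were not matched. An E2F motif occurred in 21 of the 58 (36.2%), against 3.31% of all 35116 promoters, which include those of non-coding genes. A CCAAT box occurred in 32 (55.2%, against 34.6%), and the cell cycle element CHR (TTTGAA or TTCGAA, either strand) in 3 (5.17%, against 16.4%). Having an E2F motif, counted only as the exact words searched, did not sort the members by their difference. The 20 measured genes with an E2F motif had a median of −0.12 with 16 lower, and the 23 without it a median of −0.15 with 20 lower. It occurred in 3 of the 8 members lower by 1.2-fold (GINS2, POLA1 and POLA2) and in 4 of the 7 higher members with a promoter (GINS1, MCM6, MCM7 and POLE). A match is a stretch of letters and not a binding site, and a promoter without these exact words can still hold another form of the site.

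Other genes around the fork were also lower on balance. Of 63 listed genes of origin firing, other subunits and loaders, primer removal, chromatin assembly, nucleotide metabolism, checkpoint and the E2F-RB network, 59 were measured, and 40 of these were lower against 19 higher (median −0.078). Of all genes, 46.8% were lower and 53.2% higher. By 1.2-fold 6 of the 59 were lower and 1 higher, against 3.58% and 4.96% of all genes. The 6 were RNASEH2B, a subunit of the ribonuclease that removes ribonucleotides from DNA (−0.44, and −0.66 on its other probe set), RB1, the retinoblastoma repressor of E2F (−0.36), MCMBP, a binding partner of the MCM proteins (−0.34), NASP, a histone H3-H4 chaperone (−0.34), UHRF1, which guides maintenance methylation (−0.29), and HUS1 of the checkpoint clamp (−0.27). The other measured probe set of HUS1 gave −0.0063. The higher gene was WEE1 (0.27), the kinase that restrains CDK1, on 1 probe set. Next in that direction were MCM9 (0.25), CHTF18 (0.20), E2F7 (0.17), TOP2A (0.14) and TFDP2 (0.13). The sign of TOP2A depended on the probe set, as its 3 probe sets ran from −0.22 to 0.14.

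By role, all 7 measured genes of the second nucleotide list were lower (median −0.074; 6 under lowess centring), as were 6 of 7 firing genes (median −0.097), led by CDC7, the kinase that phosphorylates the MCM ring, at −0.26. Of 11 chromatin genes 9 were lower (median −0.091). Some genes counted as lower in these lists had other probe sets above 0. These reached 0.11 in the nucleotide list, 0.068 in the firing list and 0.30 in the chromatin list. The E2F and RB list had 4 lower and 8 higher (median 0.0060), or 6 lower of 12 under lowess centring, with the activators E2F1 at 0.0045, E2F2 at 0.039 and E2F3 at 0.0074 (3 probe sets, up to 0.14). CDC7 and these 3 E2F genes were named after their values were seen. The list of other subunits and loaders was nearly balanced (median −0.0070), as only 5 of its 9 measured genes fell below the control. In the checkpoint list 5 of 8 did so (median −0.098). Among primer removal and topoisomerase genes it was 4 of 5 (median −0.14), and 1 of those reached 0.13 on another probe set. Genes of mitosis stood beside these lists, with 19 of 25 lower and a median of −0.10, led by NUF2 (−0.44) and NDC80 (−0.30). Beside the counts of these lists, 46.8% of all genes were lower, or 5265 of 10437 under lowess centring. TOP2A belongs to the mitosis list and to that of topoisomerases. Whether the mitosis genes and the replication genes share a cause was not tested.

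**Figure D4:**
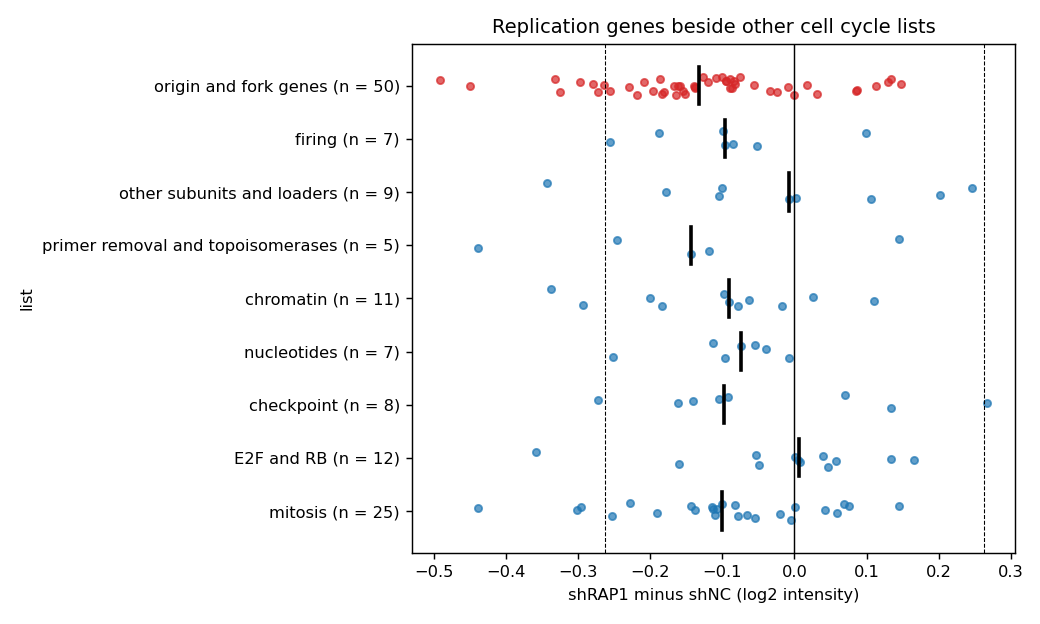
Difference shRAP1 minus shNC (log2 intensity, 1 array per group) of each measured gene in the origin and fork set (red) and in 8 other lists (blue), with black bars at the medians and dashed lines at 1.2-fold; vertical scatter within a row has no meaning. The medians run from −0.14 for primer removal and topoisomerases to 0.0060 for E2F and RB, and the origin and fork genes have a median of −0.13.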

How the data were processed

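Per the labels' protocols, Trizol-extracted RNA was converted to biotin-labelled cRNA by a kit that amplifies from the 3′ end. The authors' deposited values are probe set intensity values, and the submitters' processing notes name RMA alone. The version of RMA, and which arrays it normalised jointly, is not given in the sources used here. The values look linear, with the same maximum (25726) on both arrays, so log2 was taken with no pseudocount. RMA removes differences in total signal, so differences are relative to other genes. Names came from the platform annotation, and of 49293 non-control probe sets 44988 had 1 symbol, 1832 several and 2473 none. Each gene was its brightest probe set past the floor. All members could be named. Of the other replication and mitosis lists, up to 6 genes per direction with the largest difference could be, and a few more are named with a remark. The members and lists were chosen with earlier results of these data known. Lowess centring used a span of 0.3. The summaries were tested on simulated data. Python 3.11.15, numpy 2.4.6, pandas 2.3.3, statsmodels 0.14.6 and matplotlib 3.10.9 were used. Alternatives varied the probe set rule, floor, size, centring and summary. The number of arrays limits the precision.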

Additional observations from a re-analysis of the deposited data

How the results depend on the processing

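No paired analysis was possible because each group held 1 array. Of 183 values recomputed under other settings, 148 stayed within 1.5 times (counts) or within the probe set SD divided by the square root of the number of genes (differences), 34 moved beyond that and 1 (GINS) moved to the other sign. In 4 cases the sign differed from the value reported: GINS (second brightest probe set), RPA (2 settings) and polymerase delta (0.012 under lowess centring), the last 2 groups from values near 0. With the second brightest probe set, which only 33 members have, 27 members were lower and 2 higher by 1.2-fold, with a median of −0.11, and the group medians were −0.11 (ORC), −0.087 (loading), −0.018 (MCM2-7), 0.25 (GINS, from 2 genes), −0.30 (polymerase alpha-primase), −0.20 (PCNA and RFC), 0.099 (RPA), −0.073 (fork protection), −0.34 (nucleotide supply), −0.059 (other replication genes) and −0.046 (mitosis). The 2 higher by that size were GINS1 and RPA1, on probe sets past the floor only through the shRAP1 array. The second probe set of PCNA passed it only through the shNC array. The floor thus fixed the sign of these values, which enter the medians of GINS, RPA, and PCNA and RFC. With the median of all probe sets, 13 members were lower and 1 higher by 1.2-fold, and the medians were −0.076 for RPA, −0.30 for nucleotide supply and −0.057 for other replication genes. The higher member was GINS1, and PCNA was among the 13, both through probe sets whose sign the floor fixed. When probe sets with the less specific endings _x_at and _s_at were left out, 1 member was higher by 1.2-fold, and the medians were −0.11 for the members, −0.080 for MCM2-7, −0.076 for RPA, −0.26 for nucleotide supply and −0.063 for other replication genes. TERF2IP then had no value. The higher member was RPA1, on the probe set past the floor only through the shRAP1 array, so the floor fixed its sign. With the floor at the 75th percentile the medians were −0.056 for helicase activation (1 gene), −0.17 for GINS and −0.21 for Okazaki processing. The mean in place of the median was −0.090 for MCM2-7, −0.12 for GINS and −0.057 for polymerase epsilon. Lower by 1.1-fold were 25 members, and by 1.5-fold or 2-fold 0, while 1 was higher by 1.1-fold. The cause of these shifts was not tested. The lowess and median centrings and the absence of a floor moved no value beyond its range.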
